A study of Mus musculus with 24 samples.

Results

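Resting Th1 cells were set against naive CD4+ T cells on 2 of the 24 dual-colour arrays of the series. Both arrays carried RNA of in vitro differentiated mouse Th1 cells that had received DMSO, the vehicle, for 6 or 24 hr and had not been reactivated. Resting means only that the cells were not reactivated, and genes of cell division were high in them. The Th1 RNA was labelled with Cy3, and RNA of naive CD4+ T cells from lymph nodes and spleens, sorted as CD25-CD44lo among other markers, was labelled with Cy5 on the same array. Th1 and naive cells both came from female C57BL/6 mice, whose age the labels do not give. Each condition had 1 array, the dyes were never swapped, and the label text gives a single biological replicate. The Th1 cells were a polarised bulk culture, so the share of cells that carried a given RNA and the amount per cell cannot be told apart. A probe that prefers one dye and a gene that differs between the cell types cannot be told apart either, and the 6 and 24 hr arrays lay on different slides, so slide and time are joined as well. The array of unstimulated Th2 cells with DMSO is given beside the Th1 values. Its label gives 24 hr in one field and 6 hr in another, so its time is unclear.

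A naive CD4 T cell circulates through lymph nodes in a quiescent state, held there by transcription factors such as TCF-1, LEF1, FOXO1 and KLF2 and by signals through the interleukin-7 receptor. When it is activated in the presence of interleukin-12 and interferon-γ, the transcription factor T-bet is induced and the cell divides, switches to glycolysis and gains the ability to secrete interferon-γ. Th1 cells of this kind defend against intracellular microbes, and they keep part of this programme after the stimulus is withdrawn.

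The values are log2 ratios of Th1 over naive signal after background correction and loess normalization, so +1 is 2-fold higher and -1 is 2-fold lower in Th1 cells. Loess holds the bulk of genes near 0, and each ratio is relative to that bulk. Of 20028 genes with a symbol, 12397 were tested because the Cy3 or the Cy5 signal was well above background on both arrays, and 11167 of these were so in both channels. A gene was called at an adjusted p below 0.05 in limma, with Benjamini-Hochberg adjustment over all genes tested. That fit used the 6 DMSO arrays and took its spread from the 6 and 24 hr arrays of unstimulated and of reactivated Th1 cells, with 2 residual degrees of freedom. The 2 times thus stood in for replicates, and the p-values measure the spread between these arrays only.

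In resting Th1 cells 4204 genes (33.9% of those tested) were called higher and 3319 genes (26.8%) lower than in naive cells. The counts of called list members below stand against these shares. By the fold rule, 1478 genes (11.9%) were at least 2-fold higher on both arrays and 750 genes (6.05%) at least 2-fold lower on both. With median centring these counts were 870 and 2289, so which side held more genes depended on the setting. With the scanner software's ratios they were 2021 and 1341, with the larger side as after loess. At least 4-fold on both arrays, 583 genes were higher and 105 lower, and at 16-fold the counts were 112 and 8. The values at the edge of the fold rule were continuous. Bcat1, with 1.00 at 6 hr and 1.05 at 24 hr, lay just inside it, and Zbtb3, with 0.999 and 1.03, just outside. On the lower side Usp7, with -1.001 and -1.05, was just inside and Dtx4, with -1.19 and -0.9999, just outside.

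The share of higher among called genes depended on where the zero of the ratio was set. It was 55.9% after loess, 75.2% when each array was also shifted by its spike-in RNA, and 25.3% with median centring in place of loess. The median of all genes tested was 0.05, 0.33 and -0.40 under these settings, so directions of genes within about these shifts of 0 are those of the loess scale.

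**Figure D1:**
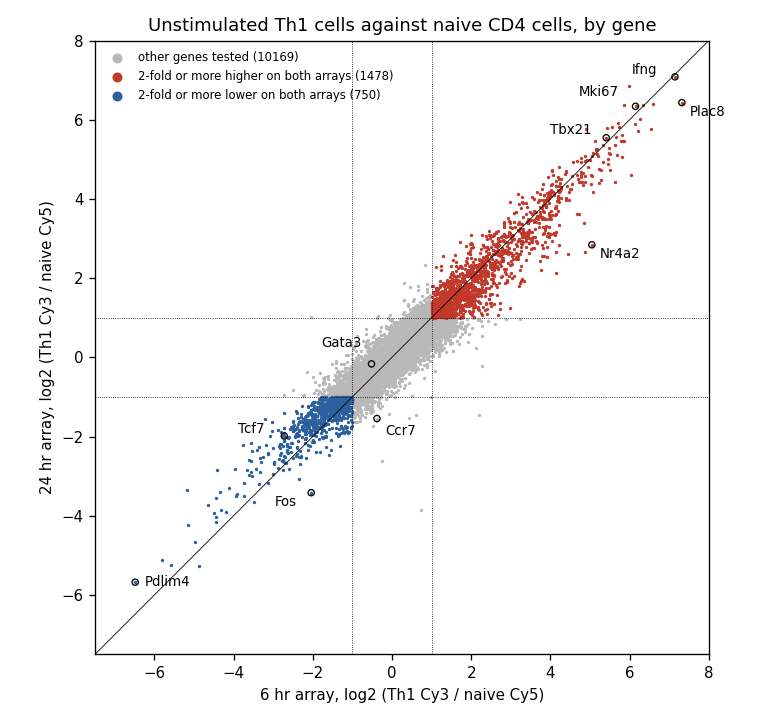
Each point is 1 of the 12397 genes tested, with its log2 ratio of Th1 over naive signal at 6 hr on the x axis and at 24 hr on the y axis. Red marks the 1478 genes at least 2-fold higher on both arrays, blue the 750 at least 2-fold lower, dotted lines stand at 2-fold and the solid line marks equal values. Most points lie near the line, and Ifng and Plac8 stand at the upper end and Pdlim4 at the lower end.

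The 12 highest genes that were measured well above background in both channels held effector genes beside genes of cell division. Ifng, which encodes interferon-γ, was at 7.15 on the 6 hr array and 7.08 on the 24 hr array, a mean of 139-fold over naive cells (SE 0.12 on the log2 scale; limma, adjusted p 1.47e-06). Plac8 was at 7.32 and 6.43, and Gzma, the granule protease granzyme A, at 6.22 and 5.72. The unstimulated Th2 array was below both Th1 arrays for these genes. There Ifng was at 0.65, Plac8 at 0.52 and Gzma at 3.48. AA467197 stood at 5.86 and 6.38 against 1.63 in Th2 cells, and Lilrb4a, an inhibitory receptor gene, at 6.25 and 6.02 against 2.65.

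Other genes of the same 12 were high in Th2 cells too. Birc5, the mitotic regulator survivin, was at 6.35 and 6.37 in Th1 and 6.56 in Th2 cells. Mki67, which encodes the proliferation antigen Ki-67, was at 6.15 and 6.34 against 6.51, and Rrm2, the ribonucleotide reductase subunit that makes deoxynucleotides, at 5.70 and 5.93 against 5.60. Egln3, a prolyl hydroxylase of the oxygen-sensing pathway, was at 6.59 and 6.41 against 5.20, and was called above Th2 cells. The group was completed by Emp1 (5.99 and 6.85), Prnp (6.54 and 5.76) and Ctla2b (6.15 and 5.89). The choice of these 12 required a call.

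The 12 lowest genes of this kind included members of the naive and type I interferon lists. Pdlim4, a PDZ and LIM domain protein, was at -6.49 and -5.68, 67.8-fold below naive cells on average, while the Th2 array had -0.58. Dapl1 was at -5.81 and -5.12, Dtx1, a regulator of Notch signalling, at -5.58 and -5.26, and Atp1b1, a subunit of the sodium pump, at -4.87 and -5.27. Th2 cells were low for these 3 as well, at -4.0, -5.72 and -4.01. Il6ra, the interleukin-6 receptor chain, was at -4.31 and -3.85, below the Th2 value of -2.41. The antiviral genes Oas2 (-4.44 and -4.04), Rtp4 (-5.19 and -3.36) and Ifi208 (-4.49 and -3.94) and the genes Slc16a5, Vipr1, Xkrx and Nsg2 made up the rest. Rtp4 had the widest spread of the 12, with an SE of 0.49 (limma, adjusted p 0.000387). A second probe of Slc16a5 gave only -0.39 against -4.82 for the brightest, so the size of that gene's difference differs between probes.

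**Figure D2:**
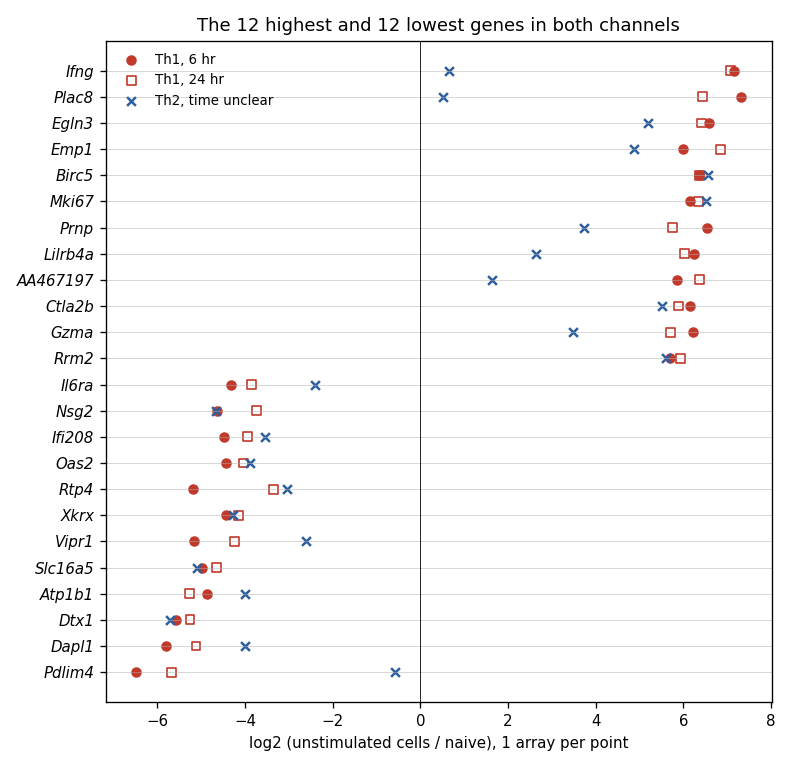
Log2 ratio to naive cells (x axis) of the 12 highest and 12 lowest genes measured in both channels (y axis), with 1 array per point: Th1 at 6 hr (filled circle), Th1 at 24 hr (open square) and Th2 of unclear time (cross). The Th1 arrays lie close together for most genes, and the Th2 array lies far from them for Ifng, Plac8, AA467197 and Pdlim4 and near them for Birc5, Mki67, Rrm2 and Dtx1.

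For 513 of the genes tested the naive channel was not well above background on either array, so only a lower bound of the ratio can be given. Each bound sets the Th1 signal against the higher of the dim spot's own value and the lowest naive signal well above background. Ccl4, a chemokine made by effector T cells, was at least 38.8-fold higher in Th1 cells. Bub1, a kinase of the spindle checkpoint, was at least 35.0-fold higher, Pygl, the glycogen phosphorylase, at least 26.4-fold, and Cdc6, which loads the replicative helicase, at least 20.0-fold. Neil3, Ckap2l, Vldlr and Dapk2 followed, at least 19.4-fold, 17.2-fold, 16.7-fold and 16.1-fold higher. These bounds are those of the brightest probe, and another probe of Vldlr gave a mean of only 0.56 and of Cdc6 2.72 (log2). In the other direction, 214 genes were tested on the naive channel alone. Their bounds were smaller, and the leading genes were Ggt5 (at least 12.8-fold lower in Th1 cells), Rflnb (9.56-fold), Grm6 (4.52-fold) and the histone gene H3c15 (3.67-fold).

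Genes of the Th1 programme were next examined as a list of 20. All 19 that the arrays measured were tested, 17 were called higher and none lower, 14 of them at least 2-fold on both arrays, and the median was 2.32 against 0.05 for all genes. None was lower at an unadjusted p under 0.05 in limma either. Of these, 4 were tested on the Th1 channel alone, where a gene can hardly be called lower. Among the 15 measured in both channels on both arrays 13 were called higher, with a median of 2.32. Tbx21, which encodes T-bet, was at 5.41 and 5.55, a mean of 44.6-fold over naive cells. The chemokine receptors of Th1 cells were high too, with Cxcr3 at 4.04 and 4.72 and Cxcr6 at 4.26 and 4.30. Il18rap, an interleukin-18 receptor chain, was at least 11.3-fold higher, and its partner Il18r1 was at 1.96 and 2.68. Il12rb2, the signalling chain of the interleukin-12 receptor, was at 1.60 and 1.23. The exceptions were transcription factors, since Stat4, which relays interleukin-12 signals, was at 0.42 and -0.07, and Eomes was at -0.66 and 0.59, and neither was called.

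The Th2 array had a median of -0.02 over the same 19 genes. In the contrast of resting Th1 minus resting Th2 cells, where 2.48% of all genes were called (308 genes, and 2110 at an unadjusted p under 0.05), 11 of the 19 were called. Tbx21 was at -0.02 and Cxcr3 at -0.06 on the Th2 array, close to the naive level. Il18r1 was at -2.74 and Fasl, the ligand that triggers death receptors, at -1.66, below the naive level, while Th1 cells were above it. Their differences between the Th1 arrays and the Th2 array were 5.06 (SE 0.41; limma, adjusted p 0.00343) and 2.94 (SE 0.46; limma, adjusted p 0.0293). That contrast had 1 Th2 array of unclear time, which was assumed to vary like the Th1 arrays, so its calls compare these arrays. Its count over all genes was 97 with the scanner software's ratios, 204 with the deposited ratios, 483 with median centring and 572 without the 24 hr Th1 array.

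Genes of the opposing lineages were examined next. Of 17 genes of the Th2 programme 13 were tested, with 6 called higher, 2 lower and a median of 0.30, where 33.9% and 26.8% of all genes were called. Of the 13, 3 were tested on the Th1 channel alone. Nfil3, a transcription factor also induced by activation, was at 4.89 and 4.43 and equally high in Th2 cells at 4.68. Gata3, the master regulator of Th2 cells, was at -0.52 and -0.17 and was not called against naive cells (limma, adjusted p 0.203), whereas the Th2 array had 1.95. Il4 was not well above background in either channel of the Th1 arrays. Il1rl1, the interleukin-33 receptor, was at least 5.48-fold higher in Th1 than in naive cells, and Ccr4 was at 1.64 and 1.82, below the Th2 value of 3.08.

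Among 14 genes of other T helper lineages, 10 were tested, and 3 were called higher and 1 lower, against 33.9% and 26.8% of all genes, with a median of 0.22 that turned to -0.080 with median centring. Il21, a cytokine of follicular helper cells, was at 4.85 and 3.40 and at least 16.1-fold higher than naive signal, Rora at 2.86 and 2.17, and Ccr6 at 2.50 and 1.37. Il17a and Il17f, which mark Th17 cells, were not well above background in any channel of the 2 arrays. Foxp3, the factor of regulatory T cells, was lower at -0.67 and -0.39 (limma, adjusted p 0.00849). Bcl6 changed side between the arrays, from 0.98 at 6 hr to -0.997 at 24 hr.

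Genes of naive quiescence and homing formed the lowest list. All 27 members with a probe were tested, 23 were called lower and 1, Sesn3, higher, and 17 were at least 2-fold lower on both arrays. The median was -1.53, and of all genes 26.8% were called lower and 33.9% higher. The transcription factors Lef1 (-3.18 and -2.22), Tcf7 (-2.72 and -1.99), Klf2 (-2.73 and -1.78), Klf3 (-3.14 and -2.43), Foxo1 (-1.49 and -1.48) and Foxp1 (-1.64 and -1.34) were all called lower. S1pr1, the receptor that lets T cells leave lymph nodes, was at -2.71 and -2.0, and Il7r, the interleukin-7 receptor chain, at -1.25 and -1.38. Ccr7, which guides T cells into lymph nodes, was at -0.38 at 6 hr and -1.55 at 24 hr and was not called (limma, adjusted p 0.0765).

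Th2 cells were low for these genes too, with a list median of -1.29. The contrast called 4 of the 27 genes, against 2.48% of all genes. These were Pdlim4, Il6ra, Cd55 and S1pr1, each lower in Th1 cells. Cd55, a surface inhibitor of complement, was at -3.43 and -2.82 in Th1 and -1.65 in Th2 cells.

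Of 22 tested genes of activation and memory surface proteins, 15 were called higher and 3 lower, against 33.9% and 26.8% of all genes. The median was 1.28. Among the 19 measured in both channels on both arrays 13 were called higher and 3 lower. Il2ra, the CD25 chain by whose absence the naive cells were sorted, was at 5.32 and 5.36, and Cd44, also a sorting marker, at 0.97 and 1.57. Genes outside the sort went both ways. Il2rb, a receptor chain shared by interleukin-2 and a related cytokine, was at 4.21 and 4.34, and the inhibitory receptor Ctla4 at 4.89 and 2.65. The costimulatory receptors Tnfrsf4 (3.95 and 3.14), Tnfrsf18 (2.50 and 1.99) and Icos (2.49 and 1.59) and the inhibitory receptors Lag3 (2.34 and 2.08) and Pdcd1 (1.65 and 1.66) were called higher. Cd27 (-1.90 and -1.88), Cd86 (-1.26 and -1.29) and Tnfrsf9 (-0.61 and -0.75) were called lower, although another probe of Tnfrsf9 gave a mean of 3.04.

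**Figure D3:**
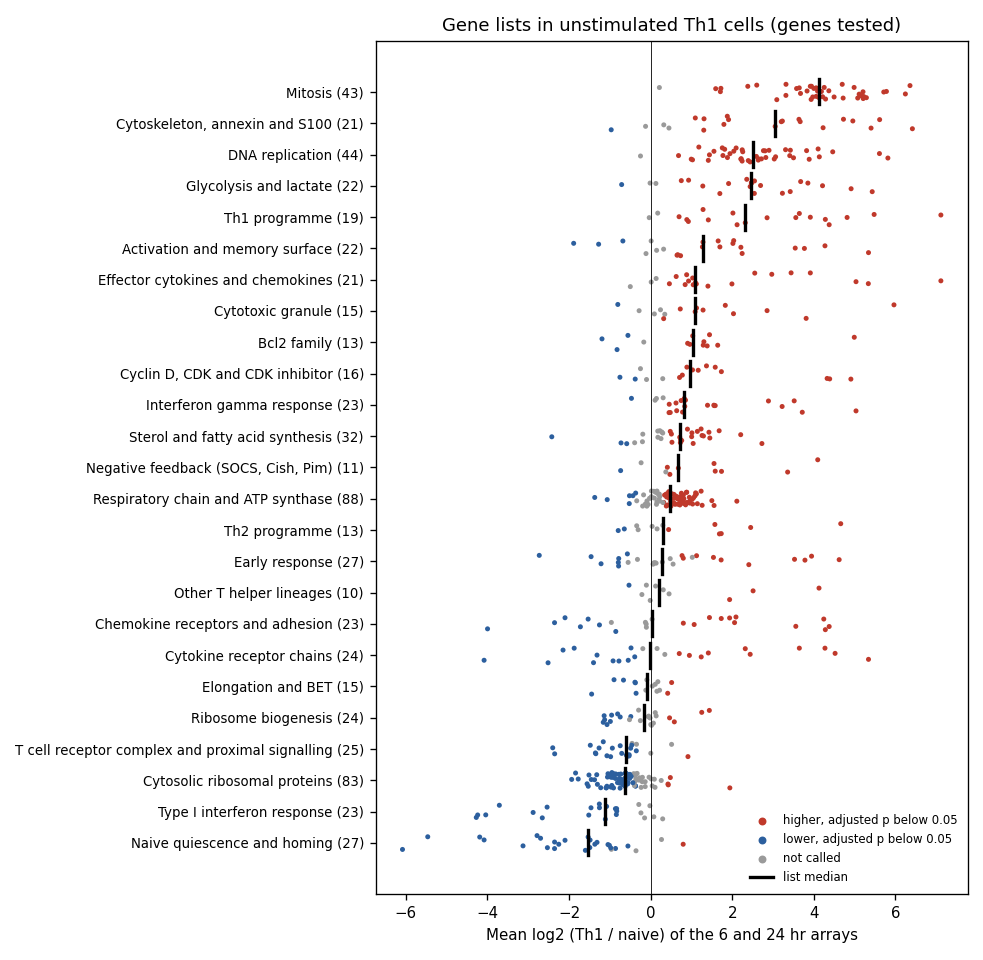
Mean log2 ratio of the 2 Th1 arrays to naive cells (x axis) for the tested members of each of 25 gene lists (y axis, number tested in brackets), with each gene as a point coloured by its call and the list median as a black bar. Medians run from 4.12 for mitosis to -1.53 for naive quiescence and homing. Points are spread vertically only to keep them apart.

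Effector cytokines and chemokines were high without reactivation. Of 21 tested, 18 were called higher and none lower by limma (1 at an unadjusted p under 0.05), and the median was 1.1, or 2.96 with the software's ratios. Of these, 6 were tested on the Th1 channel alone. Among the 14 measured in both channels on both arrays 11 were called higher and none lower, with a median of 0.98. After Ifng and Ccl4, the largest were Cxcl10 (5.64 and 4.43), Ccl5 (3.67 and 4.16), Ccl3 (2.97 and 3.92), Tnfsf14 (3.25 and 2.69) and Xcl1, at least 5.87-fold higher. Il2, the growth factor of T cells, was at 0.31 and 1.88, and Tnf at 0.65 and 1.21. The naive channel was not constant for several of these genes. Over the 24 arrays the normalized Cy5 signal of Ifng had a lowest value of 5.57, a median of 6.39 and a highest of 10.87 (log2), although the labels describe the same kind of naive cells throughout. On the 2 Th1 arrays it was 6.94 and 6.87. The range over 24 arrays was 9.18 for Ccl1, 7.30 for Ccl3 and 5.44 for Gzmb, and the median range over all genes tested was 0.38. Of the 243 genes chosen by the naming rule 16 had a range of 2 or more. Beyond the chemokines and effector genes these were Lilrb4a (3.25), Lgals3 (3.09), Slc16a3 (3.02), Il2ra (2.64), Cdkn1a (2.57), Nr4a2 (2.48), Tubb6 (2.45) and Anxa2 (2.13). The ratios of these genes depend on the naive signal of the 2 arrays used. For Slc16a3 that signal was 11.14 and 10.77, against a median of 9.36 over 24 arrays. Whether Cy3 signal reaches the Cy5 channel was not tested. For Ccl1 the Th1 ratio also turned sign with the deposited table of log2 ratios, from a mean of 1.99 to -1.43, so its direction is unsettled.

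Cytotoxic granule genes were mostly higher. Of 15 tested, 10 were called higher and 1 lower, against 33.9% and 26.8% of all genes, and the median was 1.09. Gzma was followed by Gzmb, granzyme B, at 3.69 and 3.93, Nkg7 at 2.59 and 3.12, and Gzmc at 1.95 and 2.11. Prf1, the pore-forming perforin, was lower in Th1 than in naive cells, at -1.06 and -0.55 (limma, adjusted p 0.00391). Th2 cells had a list median of -0.05, and 6 of the 15 genes were called in the contrast of Th1 minus Th2 cells, against 2.48% of all genes.

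Genes that interferon-γ induces and genes known for the type I interferon response went opposite ways. Of 23 tested interferon-γ response genes, 19 were called higher and 1, Nlrc5, lower, against 33.9% and 26.8% of all genes, and the median was 0.82. Another probe of Nlrc5 gave 0.18. Gbp3 (3.94 and 3.49), Gbp5 (4.21 and 2.83) and Gbp2 (3.42 and 3.03), which encode guanylate-binding proteins, and the transcription factor Irf8 (2.86 and 2.92) led the list. Irf1 was at 0.63 and 0.62 in Th1 and -1.42 in Th2 cells. The Th2 median was -0.38, and 14 of the 23 were called in the contrast of Th1 minus Th2 cells, against 2.48% of all genes. Gbp6, at 1.12 and 1.67 in Th1 and -1.16 in Th2 cells, and Igtp, at 1.30 and 1.82 against -1.02, lay more than 2-fold from naive cells on opposite sides.

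Of 23 tested type I interferon response genes none was called higher by limma, at an adjusted or unadjusted p under 0.05. Of the 23, 17 were called lower, 11 of them at least 2-fold on both arrays, with a median of -1.11. Among all genes 33.9% were called higher and 26.8% lower. After Rtp4 and Oas2 came Oasl1 (-4.18 and -3.90), Oas1a (-4.12 and -3.29), Oasl2 (-3.42 and -2.34), Ifit1 (-2.84 and -2.47) and Ifit3 (-2.85 and -2.23), all genes of the antiviral response. Irf7, which amplifies type I interferon, was at -1.35 and -1.16. Isg15 differed between the arrays, at -0.47 and -1.75. The Th2 median was -0.76, and Oasl1 was called in the contrast of Th1 minus Th2 cells (limma, adjusted p 0.0469), where 6 of the 23 had an unadjusted p under 0.05.

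**Figure D4:**
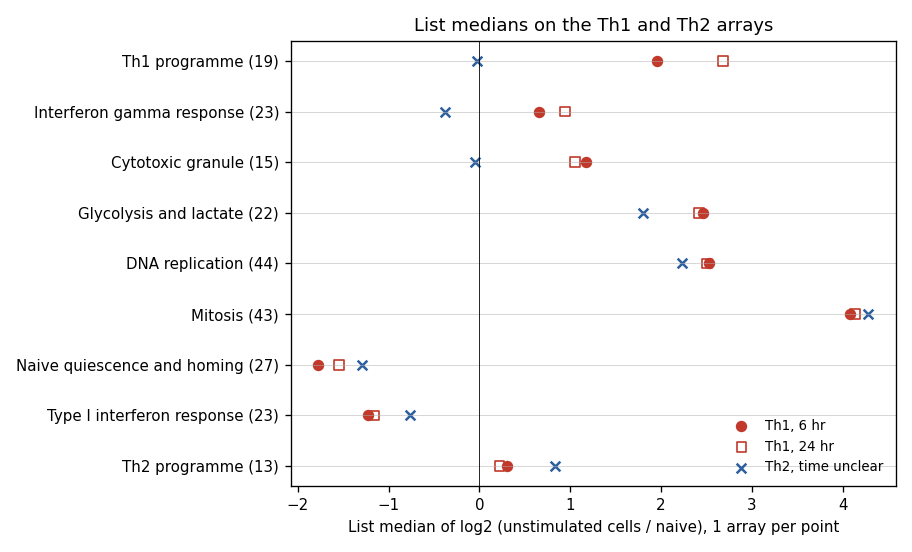
Median log2 ratio to naive cells (x axis) of the tested members of 9 gene lists (y axis, number in brackets) on the Th1 array at 6 hr (filled circle), the Th1 array at 24 hr (open square) and the Th2 array of unclear time (cross). The arrays lie close together for replication, mitosis and naive quiescence, and the Th2 array lies below both Th1 arrays for the Th1 programme, interferon-γ response and granule lists.

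Genes of cell division had the highest list median. Of 43 tested mitosis genes 42 were called higher, all 42 at least 2-fold on both arrays, and the median was 4.12. Only Cenpf was not called, at 0.05 and 0.38. Of 44 tested DNA replication genes 43 were called higher and none lower by limma (0 at an unadjusted p under 0.05), and the median was 2.52. Gins3, at -0.07 and -0.43, was the exception. Among members measured in both channels on both arrays, 37 of 38 mitosis and 40 of 41 replication genes were called higher. The mitosis list ran from Birc5 and Mki67 through Nusap1 (5.74 and 5.82), Cenpe (5.82 and 5.62) and Ccna2 (5.12 and 5.46) to Hmmr (1.48 and 1.71). The replication list ran from Rrm2 and Uhrf1 (5.43 and 5.79) to Tyms (0.73 and 0.64), and included the helicase subunits Mcm2 to Mcm7, the clamp Pcna at 2.57 and 2.30, and the primase Prim1 at 2.83 and 2.71.

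Th2 cells had medians of 4.28 for mitosis and 2.23 for replication. No gene of either list was called in the contrast of Th1 minus Th2 cells by limma, and 2 mitosis and 4 replication genes had an unadjusted p under 0.05. Calls were rare over all genes too, at 2.48%, and 2110 of the 12397 tested had an unadjusted p under 0.05 by limma. The lack of calls does not show that the values were equal.

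Among 16 genes of D cyclins, CDKs and their inhibitors, 11 were called higher and 2 lower, against 33.9% and 26.8% of all genes. The median was 0.96. Among the 13 measured in both channels on both arrays 8 were called higher and 2 lower, with a median of 0.78. The inhibitors Cdkn1a (4.78 and 5.04), Cdkn2c (4.06 and 4.6) and Cdkn2a (4.04 and 4.74) were highest. Another probe of Cdkn1a gave a mean of 1.80, also higher. Ccnd2 (-1.02 and -0.49) and Ccnd1 (-0.40 and -0.36), both D cyclins, were lower.

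Promoter sequence is shown for 4 members of these lists that were at least 2-fold higher on both arrays and held the letters searched. The sequences are the 250 bases before the annotated start, from RefSeq on GRCm38.p6 and on the strand of the gene. Capitals mark matches, on either strand, to the letter set for which that gene is shown, and other sets stay in lower case, as CCAAT does in Nkg7. In the mitosis list 75.7% of 37 genes with a promoter held CCAAT, the core of the element bound by NF-Y, against 37.5% of the 27025 genes in the table. It was 59.5% of 37 replication genes and 58.8% of 17 Th1 genes. The letters TTTGGCGC or TTTCCCGC, which resemble sites of E2F, were in 16.2% of replication promoters, in 1.51% of all and in none of the mitosis or Th1 promoters. TCACACCT, the T-box half-site letters, were in 1 of 17 Th1 promoters and in 1.30% of all. A match is only a match of letters, and none of these shares was tested. Cenpe, a kinesin of the kinetochore, and Mki67 are shown as mitosis genes with CCAAT, Cdc6 as the replication gene and Nkg7 as the Th1 gene.
Mki67, chr7:135716380-135716629, minus strand: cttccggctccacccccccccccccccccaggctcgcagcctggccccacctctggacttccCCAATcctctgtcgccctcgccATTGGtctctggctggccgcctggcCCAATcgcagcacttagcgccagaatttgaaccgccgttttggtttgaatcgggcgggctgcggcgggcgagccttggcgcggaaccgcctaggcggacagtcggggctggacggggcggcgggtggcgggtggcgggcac
Cenpe, chr3:135212313-135212562, plus strand: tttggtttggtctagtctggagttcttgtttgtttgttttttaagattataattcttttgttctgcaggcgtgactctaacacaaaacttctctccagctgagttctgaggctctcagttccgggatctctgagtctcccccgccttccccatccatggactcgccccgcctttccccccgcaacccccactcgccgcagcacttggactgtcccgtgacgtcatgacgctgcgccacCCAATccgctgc
Cdc6, chr11:98907901-98908150, plus strand: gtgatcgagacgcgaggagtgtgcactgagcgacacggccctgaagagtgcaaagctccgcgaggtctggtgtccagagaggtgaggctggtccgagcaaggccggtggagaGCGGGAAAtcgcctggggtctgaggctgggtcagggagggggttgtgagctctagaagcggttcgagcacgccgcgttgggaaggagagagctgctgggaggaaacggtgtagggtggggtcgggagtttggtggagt
Nkg7, chr7:43436888-43437137, plus strand: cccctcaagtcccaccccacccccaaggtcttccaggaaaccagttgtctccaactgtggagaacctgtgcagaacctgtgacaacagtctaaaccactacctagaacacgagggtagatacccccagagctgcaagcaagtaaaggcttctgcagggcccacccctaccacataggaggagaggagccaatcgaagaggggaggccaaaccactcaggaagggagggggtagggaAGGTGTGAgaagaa

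Genes of glycolysis and lactate transport were higher as a group. Of 22 tested, 19 were called higher and 1 lower, 17 of them at least 2-fold on both arrays, and the median was 2.47. Tpi1, triose phosphate isomerase, was at 4.86 and 4.97, the lactate exporter Slc16a3 at 4.2 and 4.23, Pgam1 at 4.01 and 3.70, and hexokinase Hk2 at 3.84 and 3.52. Bnip3, which hypoxia induces and which was placed in this list, was at 5.81 and 5.05. The glucose transporters Slc2a1 (2.68 and 2.27) and Slc2a3 (2.69 and 2.40) were also higher. Pdk1, which holds pyruvate out of the mitochondrion, was lower at -0.61 and -0.81. Th2 cells had a median of 1.80, and none of the 22 was called in the contrast of Th1 minus Th2 cells by limma (13 at an unadjusted p under 0.05). That contrast called 2.48% of all genes.

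Respiratory chain and ATP synthase genes, with their assembly factors, were shifted less. Of 88 tested, 59 were called higher and 6 lower, against 33.9% and 26.8% of all genes. The median was 0.48, a direction that turned to -0.21 with median centring of the arrays. Cox7a1 was highest (2.22 and 2.01) and Ndufaf4, an assembly factor, lowest (-1.54 and -1.20). Of 32 sterol and fatty acid synthesis genes 20 were called higher and 3 lower, against the same shares of all genes. Their median of 0.72 was 0.089 with median centring. The desaturase Scd2 was at 3.01 and 2.44 and the squalene epoxidase Sqle at 1.49 and 1.41, while Fasn, the fatty acid synthase, was at -0.88 and -0.30 and Acss2, which makes acetyl-CoA from acetate, at -2.58 and -2.26.

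Of 21 cytoskeleton, annexin and S100 genes, 17 were called higher and 1, Actb, lower, and the median was 3.05. The calcium-binding protein gene S100a6 was at 5.65 and 5.58, Anxa1 at 5.69 and 5.11, Lgals3 at 4.93 and 4.98, Tubb6 at 4.86 and 4.59, and S100a4 at 3.79 and 3.48. On the 6 hr array the naive signal of Anxa1 (5.77, log2) was below the lowest one well above background (5.86). Its 6 hr ratio is therefore one to a dim signal. Actb, the β-actin gene often used as a constant reference, was lower at -1.26 and -0.67, and Gapdh was higher at 2.67 and 2.72.

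Genes of protein synthesis were examined as well. Of 83 tested cytosolic ribosomal protein genes, 58 were called lower and 4 higher, with a median of -0.63. That median was -0.19 with the software's ratios and -1.53 with median centring, so the size of the fall depends on the setting. Rps14 (-1.54 and -2.33) was lowest, and Rps27l, a p53-induced paralogue, highest (1.81 and 2.07). These genes have many near-identical copies that a probe may share. Of 24 ribosome biogenesis genes 9 were called lower and 4 higher, where 26.8% and 33.9% of all genes were called, with a median of -0.15 that turned to 0.12 with the spike-in shift. Pa2g4 (1.43 and 1.45) and Ncl, nucleolin (1.29 and 1.21), were the highest, and Polr1a and Polr1b, subunits of RNA polymerase I, were at -1.42 and -0.85 and at -1.37 and -0.77. For Pa2g4 and Ncl another probe gave a mean below 0, at -0.54 and -0.07. Myc, which drives this programme in dividing cells, was at -0.05 and 0.17 and was not called (limma, adjusted p 0.753).

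Receptor genes, like all genes tested (33.9% called higher and 26.8% lower), went both ways. Of 23 tested chemokine receptor and adhesion genes 11 were called higher and 7 lower, with a median of 0.04, too close to 0 to keep its sign across settings. Of these, 3 were tested on the Th1 channel alone, where a gene can hardly be called lower. Among the 19 measured in both channels on both arrays 8 were called higher and 6 lower, with a median of -0.10. Beside Cxcr3 and Cxcr6, Fut7, which builds selectin ligands, was at 3.93 and 4.56, while Itga4, the α4 integrin chain, was at -4.44 and -3.55 with -1.47 by its other probe. Of 24 cytokine receptor chains, 10 were called higher and 11 lower, with a median of -0.02 that also changed sign between settings. Here 2 were tested on the Th1 channel alone. Among the 22 measured in both channels on both arrays 8 were called higher and 11 lower, with a median of -0.29. Il12rb1 was at 4.23 and 4.82, whereas Il6ra, its signalling partner Il6st (-2.33 and -2.70) and Il27ra (-2.15 and -1.59) were lower. The chains of the interferon-γ receptor went opposite ways, with Ifngr1 at 2.59 and 2.29 and Ifngr2 at -1.91 and -2.39.

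T cell receptor and proximal signalling genes were mildly lower. Of 25 tested, 20 were called lower and 1, Themis, higher, and the median was -0.59. Cd4 was at -1.18 and -0.96 and Cd3e at -1.31 and -0.56. The largest differences were those of Txk (-2.30 and -2.50) and Trat1 (-2.41 and -2.29), and the kinase Lck was at -1.48 and -1.20. All 25 were well above background in both channels on both arrays, as the T cell labels require.

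Of 13 tested Bcl2 family genes, 9 were called higher and 3 lower, against 33.9% and 26.8% of all genes, with a median of 1.03. The proapoptotic genes Pmaip1 (5.23 and 4.76), Bcl2l11 (2.04 and 1.25) and Bax (1.17 and 1.72) were higher, as was the prosurvival gene Bcl2l1 (1.58 and 1.20). Bid was lower at -1.30 and -1.08. Of 11 feedback genes of cytokine signalling, 8 were called higher and 1, Socs3 (-0.65 and -0.82), lower, against the same shares of all genes. Their median was 0.68. Socs2 was at 3.82 and 4.37 and Cish at 3.07 and 3.64.

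The study asked about transcriptional elongation, so 15 genes of P-TEFb, its inhibitors and partners, and BET proteins were listed. Of these 2 were called higher and 6 lower, against 33.9% and 26.8% of all genes, with a median of -0.09 that turned to 0.18 with the spike-in shift and to 0.04 with the mean of each gene's probes. Cdk9, the kinase of P-TEFb, was at 0.11 and 0.25 and was not called. Probes of Cdk9 gave means of -0.31 and 0.52. Hexim1, an inhibitor of P-TEFb, was the only one at least 2-fold from naive cells on both arrays, at -1.45 and -1.44 (limma, adjusted p 6e-05).

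The 6 and 24 hr arrays differed for fewer genes than Th1 and naive cells did. Of all genes tested, 189 (1.52%) were 2-fold or more apart, 110 higher at 6 hr and 79 higher at 24 hr, and the SD of the difference over genes was 0.37. With 1 unstimulated array at each time these differences have no test of their own. Early response genes, which stimulation induces within minutes, accounted for several. Of 27 tested, 24 had a higher ratio at 6 hr than at 24 hr, against 48.3% of all genes, and 8 were 2-fold or more apart. Nr4a2 was at 5.05 and 2.84, Fosl2 at 4.44 and 2.62, Nr4a1 at 2.26 and -0.22, and Egr1 at 0.44 and -1.54. Against naive cells the early response genes were called about as often as all genes (33.9% higher and 26.8% lower). Of the 27, 10 were called higher, led by Rgs1 (5.07 and 4.17), and 7 lower, led by Fos (-2.04 and -3.42), with a median of 0.29 that turned to -0.19 with median centring and to -0.028 without the 6 hr array.

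Cytosolic ribosomal protein genes showed the same tilt, with 79 of 83 at a higher ratio at 6 hr, and list medians of -0.36 at 6 hr and -0.89 at 24 hr. Ribosome biogenesis genes were tilted the other way, with 4 of 24 higher at 6 hr. Mitosis (17 of 43) and replication genes (20 of 44) had no 2-fold difference between the times.

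**Figure D5:**
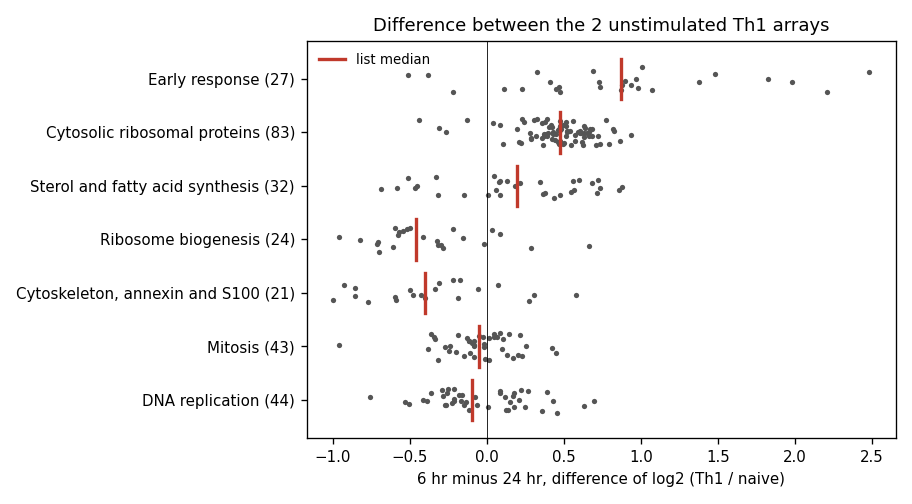
Difference between the 6 hr and the 24 hr array in log2 ratio of Th1 over naive signal (x axis) for the tested members of 7 lists (y axis, number in brackets), with each gene as a point and the median as a red bar. Early response and ribosomal protein genes lie mostly to the right of 0, ribosome biogenesis and cytoskeletal genes to the left, and replication and mitosis genes around it; each time is 1 array.

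Markers of other cells were checked, since both RNAs came from bulk cells. Their counts stand beside 33.9% of all genes called higher and 26.8% called lower. Of 7 tested B cell markers 4 were called higher in Th1 cells, with Ms4a1 at 1.71 and 1.43, and 1 lower, Cr2 at -0.84 and -0.46, while Cd22 (-0.0075 and 0.11) and Fcer2a (0.42 and 0.17) were not called. The defining genes Pax5 and Blk were not well above background in either channel. Of 5 class II genes 4 were called higher, with H2-Ab1 at 2.10 and 2.10 and Cd74 at 1.83 and 1.82. Summed over the class II list, normalized intensity was 14130 and 12310 in the Th1 channel and 4328 and 4260 in the naive channel, and over the B cell list 2173 and 1982 against 1378 and 1454. Both lists had higher medians on the Th2 array, 0.89 for B cell and 2.33 for class II genes. Of 13 myeloid and dendritic markers with a probe 7 were tested, 2 of them on the naive channel alone. Of the 7, 2 were called higher and 3 lower, against 33.9% and 26.8% of all genes. Among the 5 measured in both channels on both arrays 2 were called higher and 2 lower. The median of the 7 was -0.26, which turned to 0.01 with the spike-in shift. Lyz2, Cd14, S100a9 and Adgre1 were not above background in either channel. The summed intensity of these 13 was 74620 and 62400 in Th1 against 125500 and 142900 in naive cells. Siglech and Itgam made up most of that sum, with naive signals of 16.61 and 14.42 (log2) at 6 hr, so it describes those genes rather than the list.

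Of 7 CD8 and NK markers, Cd8a was at least 3.09-fold higher, Klrd1 was at 0.88 and 0.31, Cd8b1 was lower at -1.23 and -0.82, and 4 were not above background in either channel. Their summed intensity was 2181 and 1778 against 1533 and 1532. Of 6 erythroid and stromal markers only Hba-a1 was tested, and it was lower at -1.11 and -0.67, with summed intensities of 417.6 and 444.5 against 513.7 and 510.2. The part of other cells in any result was not tested.

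For 3184 tested genes with 2 or more probes above background, all probes had the same sign on both arrays in 1919 (60.3%). Among the 243 genes chosen by the naming rule the same was true of 59 of the 66 with more than 1 such probe. The exceptions, beside Pa2g4 and Ncl, were Aff1, Brd3, Med1, Pes1 and Stat6, whose directions differ by probe on at least 1 array. Among genes named besides, probes of Cdk9, Nlrc5 and Tnfrsf9 also lay on both sides of 0. The size of a difference depended on the probe as well. Probes of 1 sign lay 4-fold or more apart for Plac8 (lowest mean 4.81), Lilrb4a (3.56), Uhrf1 (2.79), Bnip3 (2.53), Fut7 (2.02), Il12rb1 (1.82), Cdkn2a (1.47), Fosl2 (0.74) and Vipr1 (smallest fall -1.68), and for Slc16a5, Itga4, Cdkn1a and Vldlr above.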

How the data were processed

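Per the labels, total RNA of each sample was amplified and labelled with Cy3, naive reference RNA with Cy5, and spike-in RNA was added to both. The deposited scanner files held median pixel intensity of spot and local background in both channels. Per the file headers they came from Agilent Feature Extraction 10.7.1.1. A log10 ratio of Cy5 over Cy3, from the scanner software, stood in these deposited files too. Processed log2 ratios deposited by the authors as a separate table served as an alternative only, and their normalization is not given in the sources used here. The scanner files and headers also held other software flags and statistics per the file headers, which served the filters.

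Here normexp (offset 50) and loess were applied with limma 3.58.1 in R 4.3.3, control and outlier spots were left out, and repeated spots were averaged. The software's log10 ratio was turned to Cy3 over Cy5 and to log2. Probes were named through RefSeq (GRCm38.p6, names only) or the file: 26437 of 55681 probes carried 1 of 20028 symbols, and the brightest probe stood for a gene. On the 2 Th1 arrays 48.1% to 51.9% of probes were well above background in a channel, repeated spots had an SD of 0.09 to 0.10 (log2), and no gene tested was saturated. The number of arrays limits the precision.

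limma fitted a mean for each DMSO group on 6 arrays. The ratio against 0 leaves out the spread of the reference. Where a gene lacked a value on a reactivated array, the fit dropped that array for it, and no such gene is named. The code of the fit was run on simulated data, which does not measure the error rate of the calls on these arrays.

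Genes were named by rule: the 12 highest and 12 lowest among genes past 2-fold and called in both channels, the 8 and 4 largest bounds, up to 8 of each list by size, and 20 fixed genes. Bcat1, Zbtb3, Usp7 and Dtx4 mark the edge of the fold rule, and list members beyond the first 8 were chosen after their values were seen. Members, lists and tests were chosen with earlier results of these data known. Only the 250 bases before each start were searched for promoter letters, counting a gene once. A few items among these genes are not reported here.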

Additional observations from a re-analysis of the deposited data

Results flagged for a closer look

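The ratio to naive cells differed between resting Th1 and resting Th2 cells for 55 of the 243 genes considered by name, by the limma contrast with adjusted p below 0.05. Over all genes tested that contrast called 2.48%. Apart from the fixed genes, the 243 were named by the size of their Th1 ratio, which is part of the contrast. Their share is therefore raised by the choice and is not a result about them. The values here are Th1 minus Th2 (log2, mean of 2 Th1 arrays against 1 Th2 array of unclear time). The naive signal was not well above background on either Th1 array for Ccl4, Dapk2, Il18rap, Gzme and Me1, and on 1 of the 2 for Ccl3, so their values are differences of ratios to a dim signal. Among Th1 genes the difference was 6.47 for Ifng, 5.50 for Tbx21, 5.06 for Il18r1, 4.43 for Cxcr3, 3.0 for Nkg7, 2.94 for Fasl, 2.67 for Il18rap and 1.69 for Il12rb2. Among chemokines and granule genes it was 3.53 for Ccl4, 2.92 for Cxcl10, 2.75 for Ccl3, 1.82 for Ccl5, 2.49 for Gzma, 2.07 for Gzmc and 1.14 for Gzme. Interferon-γ response genes differed by 3.90 for Gbp5, 3.42 for Gbp2, 3.42 for Gbp3, 2.58 for Igtp, 1.85 for Iigp1 and 1.58 for Irf8, and the receptor chain Ifngr1 by 2.28.

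Other genes above Th2 cells were Plac8 (6.36), AA467197 (4.49), Klrd1 (3.58), Dapk2 (3.49), Lilrb4a (3.49), Rgs1 (2.49), Rora (2.48), Pmaip1 (2.43), Prnp (2.41), Tubb6 (2.18), Me1 (2.01), S100a4 (1.64), Cish (1.51), Lag3 (1.44), Il2rb (1.33), Egln3 (1.30) and Pim2 (1.18). Below Th2 cells were Pdlim4 (-5.50), Ms4a1 (-2.47), Gata3 (-2.29), Cd79b (-2.05), H2-Aa (-1.72), S1pr1 (-1.68), Il6ra (-1.67), Acss2 (-1.62), Cd55 (-1.47), Pparg (-1.47), Cd74 (-1.40), Trat1 (-1.39), Ccr4 (-1.35), Oasl1 (-1.32) and H2-Eb1 (-1.31). For Ms4a1, Cd79b, H2-Aa, Cd74 and H2-Eb1, markers of B and antigen-presenting cells, both cultures were above naive cells.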

How the results depend on the processing

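Which side of the ratio held more genes depended on the zero point. With median centring 2241 genes were called higher and 6627 lower, 870 and 2289 passed 2-fold on both arrays, the Th1 minus Th2 contrast called 483, and the median of all genes was -0.40. With the spike-in shift 1952 were called lower, 421 passed 2-fold lower, and the median was 0.33. With the software's log ratio 1341 passed 2-fold lower, the contrast called 97, and the median was -0.024. The deposited table gave 204 calls in the contrast. The median of all genes was 0.10 with a normexp offset of 16, 0.10 without background correction and 0.054 with the mean of a gene's probes. At 1.5-fold 2561 and 1733 genes passed, and at 4-fold 583 and 105.

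Leaving out 1 of the 4 Th1 arrays in turn, 3503 to 3975 genes were called higher and 2593 to 3085 lower. Without an unstimulated array the other is assumed to vary like the reactivated arrays. The contrast called 335 to 572. Without 1 of the unstimulated arrays the 2-fold counts were 1707 to 1950 and 946 to 1189, the median was 0.0531 to 0.0574, and 71.8% to 73.6% of genes with several probes had probes of 1 sign. The 572 calls and the 1189 genes were those without the 24 hr array. Without the 6 hr array 3503 genes were called higher and 2593 lower.

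Among the 243 genes named, directions turned with median centring for Cd22 (-0.48), H2-DMa (-0.41), Larp7 (-0.14), Myc (-0.49) and Socs7 (-0.12), with the deposited table for Ccl1 (-1.43) and with the mean of probes for Brd3 (0.48). List medians that turned by more than the spread between the 2 times were those of respiratory chain genes (-0.21, median centring), elongation genes (0.18, spike-in shift; 0.042, mean of probes) and myeloid markers (0.015, spike-in shift). Medians nearer 0 or more variable turned too, for early response (-0.19), other T helper (-0.080) and chemokine receptor genes (-0.19) with median centring, chemokine receptor genes with the software ratio (-0.14) and the mean of probes (-0.041), and ribosome biogenesis genes with the spike-in shift (0.12). Without a change of sign, median centring moved several list medians by over 1.5-fold. These were the Th1 (1.73), naive (-2.22), replication (1.86), glycolysis (1.79), T cell receptor (-1.31) and D cyclin lists (0.33). The sterol (0.089), interferon-γ (0.19), ribosomal protein (-1.53) and cytokine receptor lists (-0.62) moved so as well. The software ratio did so for effector cytokines (2.96), mitosis (5.09), Th2 genes (0.93) and the 1 erythroid and stromal gene tested (-2.04). The mean of probes did so for cytoskeletal genes (2.22). Cytokine receptor chains turned to between 0.034 and 0.31 in 6 settings. The causes were not tested. The alternative with mean pixel signal was not run, because median signals were the ones held here. Each group had 1 array, so replicate numbers paired none. With time as a block over the 4 Th1 arrays, an alternative chosen after seeing the data that left 1 residual degree of freedom, 4530 genes were called higher and 3609 lower, and these included all of the 4204 and 3319.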
